A study of Mus musculus with 2 samples.

Results

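The deposited list of open chromatin sites unique to CD137+ adipose progenitors holds 14483 peaks, and 1251 of them carry the place class up5k. All rows of that class were taken, with no threshold, from 22485 peaks in the series as a whole. The 885 up5k peaks among the 8002 peaks unique to PDGFRα+ adipose progenitors served for comparison. The name up5k reads as a site up to 5 kb upstream of a gene, and each row pairs the peak with 1 Ensembl gene ID.

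Both groups were C57BL/6 mouse adipose progenitors, isolated by magnetic sorting, taken through an adipogenic cocktail and treated with 1 µM dexamethasone, a synthetic glucocorticoid. CD137, the product of Tnfrsf9, is a receptor used as a surface marker of beige progenitors, and PDGFRα, also called CD140a, is a growth factor receptor of stromal progenitors. Each group is 1 ATAC-seq library, and no untreated library was analysed here, so no value measures the drug. The cells came from subcutaneous or visceral fat, written SAT or VAT in the labels, which do not say which depot gave which library. The extraction text of the labels mentions the zona pellucida and embryonic cells, which are not found in fat. The lists hold positions only, without a height, a score or a read number, so depth is unknown. Intervals below are 95% intervals that cover counting error only, and no test and no replicate check was possible. A site open in few cells and a site slightly open in many cells cannot be told apart in such pools.

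ATAC-seq marks DNA that a transposase can reach, which includes the start sites of active genes and the enhancers around them. Promoters rich in the dinucleotide CpG tend to be open in many cell types, whereas CpG-poor promoters and enhancers are more often cell type specific. Immediate early genes, such as Jun and Nr4a1, are switched on within minutes of a stimulus by factors already present in the cell, and their products are often transcription factors themselves. In fat, homeobox and T-box factors keep a memory of the depot, and C/EBP factors, nuclear receptors and RXR partners drive adipogenesis. A peak unique to one list says that the authors' procedure found the site in that library and not in the other one. A gene absent from both lists can therefore be open in both populations, or closed in both.

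The following promoters lay wholly under an up5k peak and belong to the widest of them, 7 from the CD137 list and 1 from the PDGFRα list. They are shown because peak width and promoter sequence are compared below. Other peaks of similar width, such as those at Ubb, Ndufa4l2 and Cd248, covered no start known from RefSeq promoter entries. Each line gives the 250 bases before a gene start, read 5′ to 3′ on the gene's strand, from RefSeq on GRCm38.p6 (mm10). Where a gene has several RefSeq starts, the one nearest the peak centre was used. The starts used for Nr4a1 and Bcl6 lie inside the gene, away from its 5′ end. Capitals mark a CCAAT box (CCAAT, bound by NF-Y) or a cyclic AMP response half-site (TGACG, bound by CREB and ATF factors), on either strand.
Ftl1 (CD137, ferritin light chain; chr7:45459887-45460136, minus strand): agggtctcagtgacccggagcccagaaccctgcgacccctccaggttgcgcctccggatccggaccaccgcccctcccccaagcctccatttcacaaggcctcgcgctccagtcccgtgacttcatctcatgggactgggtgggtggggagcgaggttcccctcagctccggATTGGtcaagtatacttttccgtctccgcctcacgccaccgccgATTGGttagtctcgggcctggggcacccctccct
Nr4a1 (CD137, orphan nuclear receptor; chr15:101266596-101266845, plus strand): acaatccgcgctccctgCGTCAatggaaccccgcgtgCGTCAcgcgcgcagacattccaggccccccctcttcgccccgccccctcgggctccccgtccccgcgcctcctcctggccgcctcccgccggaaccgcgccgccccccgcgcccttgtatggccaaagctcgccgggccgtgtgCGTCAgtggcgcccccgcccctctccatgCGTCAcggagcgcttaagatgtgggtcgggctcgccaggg
Iqcn (CD137, under the same peak as the start of Jund; chr8:70701775-70702024, plus strand): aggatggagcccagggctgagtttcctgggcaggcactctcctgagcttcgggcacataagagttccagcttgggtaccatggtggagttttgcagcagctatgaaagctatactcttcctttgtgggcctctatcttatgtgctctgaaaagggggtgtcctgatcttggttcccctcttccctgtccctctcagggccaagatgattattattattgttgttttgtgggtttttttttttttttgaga
Bcl6 (CD137, zinc finger repressor; chr16:23981284-23981533, minus strand): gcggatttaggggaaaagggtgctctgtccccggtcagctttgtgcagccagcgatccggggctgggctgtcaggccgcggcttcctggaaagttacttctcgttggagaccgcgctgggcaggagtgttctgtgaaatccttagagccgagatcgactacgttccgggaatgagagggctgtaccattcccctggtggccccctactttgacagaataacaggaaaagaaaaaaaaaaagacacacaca
Ahnak (CD137, large scaffold protein; chr19:8989034-8989283, plus strand): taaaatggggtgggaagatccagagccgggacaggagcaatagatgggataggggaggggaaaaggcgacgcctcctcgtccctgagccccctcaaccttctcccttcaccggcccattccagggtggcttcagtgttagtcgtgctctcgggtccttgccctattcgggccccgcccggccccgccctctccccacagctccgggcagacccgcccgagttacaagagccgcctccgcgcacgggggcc
Pdgfa (CD137, ligand of PDGFRα; chr5:138994945-138995194, minus strand): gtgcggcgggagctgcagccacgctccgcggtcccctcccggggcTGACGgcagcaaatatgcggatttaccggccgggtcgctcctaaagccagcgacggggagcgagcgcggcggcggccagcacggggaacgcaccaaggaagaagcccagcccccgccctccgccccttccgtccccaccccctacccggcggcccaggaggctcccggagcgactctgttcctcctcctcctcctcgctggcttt
Jun (CD137, AP-1 subunit; chr4:95052223-95052472, minus strand): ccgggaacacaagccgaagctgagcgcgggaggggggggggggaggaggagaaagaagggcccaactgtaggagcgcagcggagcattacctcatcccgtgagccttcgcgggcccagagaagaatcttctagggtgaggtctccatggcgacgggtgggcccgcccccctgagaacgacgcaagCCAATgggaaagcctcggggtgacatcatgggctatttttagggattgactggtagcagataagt
Ang (PDGFRα, angiogenin, a secreted ribonuclease; chr14:51090827-51091076, plus strand): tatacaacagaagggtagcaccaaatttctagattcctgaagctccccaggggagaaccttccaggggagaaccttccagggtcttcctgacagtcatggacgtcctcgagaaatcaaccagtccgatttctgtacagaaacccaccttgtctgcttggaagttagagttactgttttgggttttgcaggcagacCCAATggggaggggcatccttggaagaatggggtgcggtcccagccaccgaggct

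The Nr4a1 promoter held 4 cyclic AMP half-sites and no CCAAT box, and the Pdgfa promoter held 1 half-site. Ftl1 had 2 CCAAT boxes and Jun and Ang had 1 each. The windows of Iqcn, Bcl6 and Ahnak held neither motif. The half-site was added to the search after the Nr4a1 sequence had been read. It occurred in 20.5% of windows at starts under CD137 up5k peaks, 25.3% of those under PDGFRα up5k peaks and 23.6% of all coding promoter windows. The printed Nr4a1 and Pdgfa stretches were rich in G and C (74.4% and 72.4%), and that of Iqcn was poor in CpG, with an observed over expected ratio of 0.0715.

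The class did not sit upstream of genes on both strands. Its peaks lay more often at the end of a gene with the lower coordinate, which is the 5′ side of a plus-strand gene and the 3′ side of a minus-strand gene. Of 381 CD137 up5k peaks within 5 kb of an end of a plus-strand coding gene, 285 (74.8%, Wilson interval 70.2 to 78.9%) were nearer the low end, its 5′ end. Of 303 at minus-strand genes, 218 (71.9%, 66.6 to 76.7%) were nearer the low end as well, here the 3′ end. The PDGFRα shares were 75.4% of 276 peaks and 71.7% of 254 peaks. Where the gene end itself lay under the peak, the low end took 161 of 183 CD137 peaks at plus-strand genes (88.0%) but 47 of 88 at minus-strand genes (53.4%, 43.1 to 63.5%). In the PDGFRα list these were 86.7% of 128 peaks at plus-strand genes and 48.1% of 81 at minus-strand genes. In the deposited class down5k the high end led, with 185 of 208 CD137 peaks at the high end of plus-strand genes and 260 of 291 at the high end of minus-strand genes. The class is therefore called by its name and not described as upstream. The strand came from the RefSeq promoter table, which gave a start for 17491 of 21883 coding genes.

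**Figure D1:**
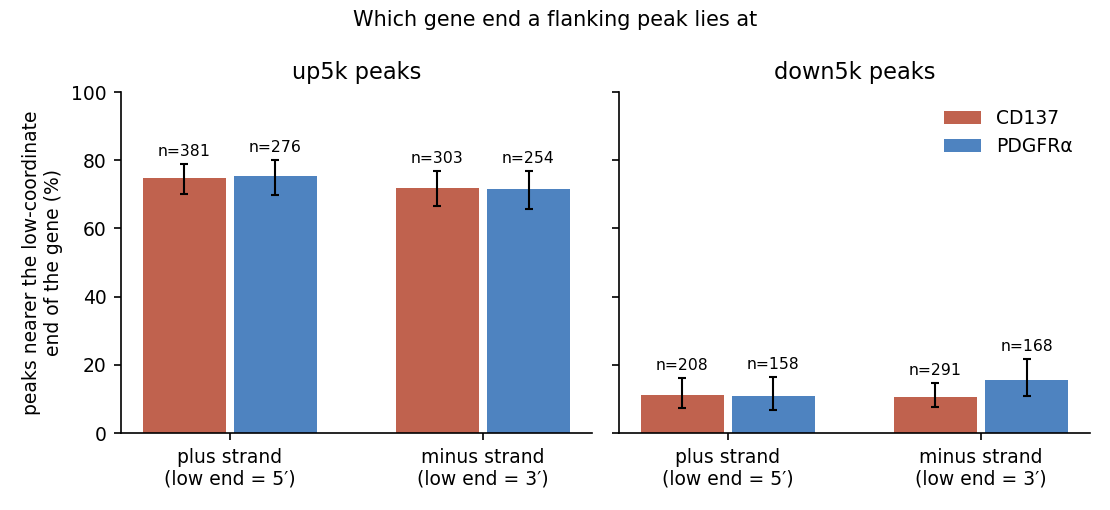
Share of up5k peaks (left) and down5k peaks (right) within 5 kb of a coding gene that were nearer the gene's low-coordinate end, for plus-strand and minus-strand genes, CD137 beside PDGFRα. Error bars are Wilson 95% intervals. For up5k peaks the share is between 71.7% and 75.4% in all 4 bars, although the low end is the 5′ end on the plus strand and the 3′ end on the minus strand.

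By place, 239 CD137 up5k peaks (19.1%) covered a known start of the gene they were assigned to, against 178 (20.1%) of the PDGFRα ones. A gene can have several RefSeq starts, some of them inside the gene, and each of them counted here and below. A further 148 CD137 peaks (11.8%) lay upstream of a known start and 49 (3.92%) downstream of it, against 98 PDGFRα peaks (11.1%) upstream and 49 (5.54%) downstream. The nearest gene start had no strand in the table for 174 CD137 peaks (13.9%) and 141 PDGFRα peaks (15.9%). Another 216 CD137 peaks (17.3%) lay at the 3′ end of a coding gene, and 226 (18.1%) near an end of a non-coding gene or pseudogene. For 199 (15.9%) no RefSeq gene end lay within 5 kb. In the PDGFRα list, 20.5% lay at 3′ ends, 14.1% near non-coding genes or pseudogenes, and 12.8% near no RefSeq gene end. Of the CD137 up5k peaks, 240 (19.2%) lay over any known coding start, against 21 (1.68%) after all peaks were moved by 3 Mb.

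Among CD137 peaks with an assigned known start, 203 of 436 (46.6%) were centred within 500 bp of it, against 152 of 325 (46.8%) in the PDGFRα list. The centre lay after the start, inside the gene, for 132 of the 203 CD137 peaks (65.0%, 58.2 to 71.3%) and for 80 of the 152 PDGFRα peaks (52.6%, 44.7 to 60.4%). That difference of 12.4 points (Newcombe interval 2.07 to 22.5) was counted after the distances had been plotted. It was not tested across replicates.

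**Figure D2:**
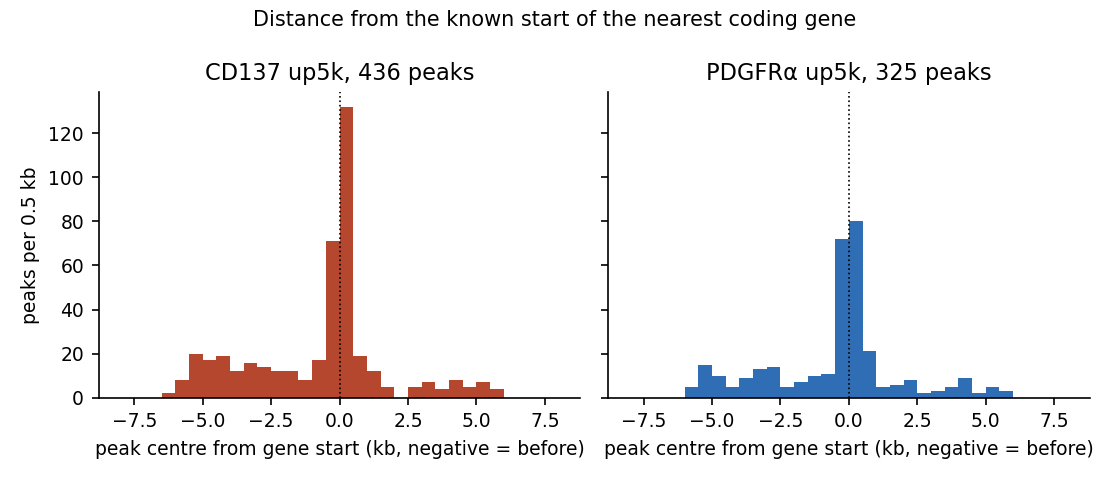
Number of up5k peaks per 0.5 kb by distance of the peak centre from the known start of the nearest coding gene, CD137 on the left (436 peaks) and PDGFRα on the right (325 peaks). Negative distances are upstream. In both lists the highest bar is the first on the gene side of the start, with 132 CD137 and 80 PDGFRα peaks.

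Each peak was then given to the coding gene whose start was nearest, within 5 kb of the peak's edge. This gave 606 genes with a CD137 up5k peak (2.77% of 21883 coding genes) and 461 with a PDGFRα up5k peak (2.11%). Of these, 576 (2.63%) had a CD137 and no PDGFRα up5k peak and 431 (1.97%) the reverse. The other 30 genes (0.137%) had both, which is 4.95% of the CD137 genes and 6.51% of the PDGFRα genes. By Ensembl ID, 1243 IDs carried the CD137 peaks, and 1235 of them carried a single peak. Tnfrsf9 and Pdgfra, whose products were used for sorting, had 0 up5k peaks in either list. Tead1, the factor through which YAP of the Hippo pathway binds DNA, and Nr3c1, the glucocorticoid receptor, also had 0. The known start of 247 coding genes lay under a CD137 up5k peak (1.41% of 17491 with a known start), and that of 181 under a PDGFRα up5k peak (1.03%).

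Immediate early genes carried up5k peaks of the CD137 list and none of the PDGFRα list. Of 58 genes of this kind, 8 (13.8%) had a CD137 up5k peak and 0 a PDGFRα up5k peak. They made up 1.32% of the CD137 genes and 0.265% of all coding genes, and the difference between the lists was 1.32 points (0.269 to 2.58). Over known starts under an up5k peak, the counts of 5 CD137 and 0 PDGFRα genes gave an interval that included 0 (-0.354 to 4.65 points). Their 9 peaks were wide, with a median of 4161 bp (range 1550 to 7857 bp), against a median of 1285 bp over all CD137 up5k peaks.

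Ier2, which encodes a nuclear protein of the early growth response, had the widest up5k peak of the CD137 list, 7857 bp at chr8:84658262-84666119. This peak spanned the whole gene, whose strand was not in the table. Nr4a1 had 2 peaks, a 6256 bp peak over its start at chr15:101265625-101271881 and a 2032 bp peak centred 6.00 kb before it. Jun, the main AP-1 subunit, had a 5283 bp peak at chr4:95049318-95054601, over its start. The 6195 bp peak at chr8:70697583-70703778 was assigned to Iqcn, but the start of Jund, another AP-1 subunit, lay under it too. Fosl1, an AP-1 partner of the FOS family, had a 1550 bp peak centred 2.78 kb below its low end, and its strand was not in the table.

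Other early genes among the members act as brakes on growth or cytokine signals. Gadd45a and Gadd45b, growth arrest genes that also take part in DNA demethylation, had peaks of 4161 bp (chr6:67034164-67038325) and 3723 bp (chr10:80928066-80931789), both over the start. Socs3, an inhibitor of cytokine signalling, had a 4483 bp up5k peak centred 5.37 kb past its start, on the 3′ side of this minus-strand gene. Sik1, a salt-inducible kinase, had a 3294 bp peak at chr17:31841240-31844534. Its strand was not in the table, so the peak was assigned by the low end of the gene, which may be its 3′ end. Thus 8 of the 9 peaks were 2 kb or wider, against 11.8% of all CD137 up5k peaks.

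Transcription factors were counted by families of gene symbols, which hold some co-factors such as Vgll2 and Mta1. KLF, SP and EGR genes, which are zinc finger genes of the C2H2 type too, formed a family apart from the other C2H2 genes. In all, 40 of the 606 CD137 genes (6.60%, 4.88 to 8.86%) belonged to such a family, against 50 of the 461 PDGFRα genes (10.8%, 8.32 to 14.0%) and 5.93% of all coding genes. The difference of -4.25 points had an interval of -7.85 to -0.857. Without C2H2 zinc fingers it was -2.03 points (-5.27 to 0.983), and among peaks at least as wide as the median of their list -4.99 points (-10.4 to 0.0446), both with 0 inside the interval. Over starts it was smaller. Of genes whose known start lay under an up5k peak, 21 of 247 CD137 genes (8.50%) and 16 of 181 PDGFRα genes (8.84%) were in these families. Over known starts under peaks of any class, 46 of 503 CD137 genes and 28 of 311 PDGFRα genes were, a difference of 0.142 points.

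Homeobox genes were the largest of these families among the members. They numbered 18 CD137 genes (2.97%) and 10 PDGFRα genes (2.17%), against 0.90% of all coding genes, and the lists differed by 0.801 points (-1.28 to 2.75). The CD137 genes held posterior members of all 4 Hox clusters, namely Hoxa10, Hoxb13, Hoxc11, Hoxc13 and Hoxd12, which pattern the hind end of the body. The PDGFRα genes held Hoxa5, Hoxa7 and Hoxc10, the last of which is a posterior member as well. Assigned by the nearest low-coordinate gene end instead, the PDGFRα Hox genes were Hoxa6, Hoxa9 and Hoxc10. In the CD137 set Hoxa11 then stood in place of Hoxa10, so the Hox genes named depend on the assignment. Pax2 and Pax8, paired-domain factors of kidney development, had CD137 peaks of 2023 bp and 891 bp. Hhex, Lmx1b, Gbx2, Pbx2, Zhx1, Gsx1, Meox1, En1 and Shox2 were also in the CD137 set. Gsx1 and Meox1 carried peaks of both lists.

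En1, Shox2 and Tbx15 are patterning genes known in mice for higher expression in subcutaneous than in visceral fat. En1 (engrailed 1) had 2 CD137 peaks, 4729 bp over its start at chr1:120601402-120606131 and 2295 bp centred 5.56 kb before it. Shox2 had a 3029 bp CD137 peak centred on its start at chr3:66980257-66983286. Tbx15, a T-box factor, had a 2513 bp CD137 peak at chr3:99239713-99242226, 0.622 kb above its low end. Of 20 genes of white fat identity in the table, 3 carried CD137 peaks (En1, Shox2, Tbx15) and 3 PDGFRα peaks (Foxc2, Hoxc10, Wt1). That is 15% for each list, against 2.77% of all coding genes for CD137 and 2.11% for PDGFRα. The lists differed by -0.156 points in their share of such genes, with 0 inside the interval (-1.44 to 0.887). The PDGFRα peaks were 3551 bp at Wt1, known for visceral fat and mesothelium, 1564 bp at Foxc2 and 1443 bp at Hoxc10. Hoxa5, which is not among the 20, had a PDGFRα peak of 3453 bp over the start. Whether the genes of either list lean to 1 depot was not tested. Depot and sorted population cannot be told apart here, since the labels do not give the depot.

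C2H2 zinc finger genes outside the KLF, SP and EGR family went the other way. There were 5 CD137 genes (0.825%) and 14 PDGFRα genes (3.04%), against 2.50% of all coding genes, a difference of -2.21 points (-4.26 to -0.575). The CD137 members were Bcl6, Ovol2, Zbtb8a, Zfp804a and Zfp872, and all 5 peaks covered a RefSeq start. The start covered at Bcl6 lies inside the gene, whose 5′ end lay outside the peak. Bcl6, a repressor that can compete with STAT factors, had the widest at 5957 bp (chr16:23980578-23986535). The PDGFRα members included Zfp503 (7346 bp), Wt1, Zeb1, Hic1 and Zfp516 (6723 bp), a factor known to promote brown and beige fat genes. Counted by starts under the peak, the CD137 list held 5 C2H2 genes and the PDGFRα list 4. The KLF, SP and EGR family, not in these counts, held 2 CD137 genes (Klf8 and Sp5) and 0 PDGFRα genes. It makes up 0.137% of all coding genes, and both CD137 peaks covered a known start.

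The remaining families were small, and for each one given here the interval of the difference between the lists included 0. Basic helix-loop-helix genes numbered 4 in the CD137 list (Ahr, Atoh1, Heyl, Lyl1) and 9 in the PDGFRα list, Hes1 and Neurog2 among them. These were 0.660% and 1.95% of the genes of each list, against 0.480% of all coding genes (difference -1.29 points, -3.05 to 0.0861). Of the bZIP family, CD137 peaks fell at Atf4, Fosl1 and Jun (0.495%), and PDGFRα peaks at Cebpb, Cebpe and Creb3l4 (0.651%). This family makes up 0.247% of all coding genes. Atf4, the effector of the integrated stress response, had a 3203 bp CD137 peak centred on its start (chr15:80253586-80256789). Cebpb, an early driver of adipogenesis and a glucocorticoid-responsive gene, had a 2481 bp PDGFRα peak over its start. Nuclear receptor genes with CD137 peaks were Nr4a1, Hnf4g and Rxra (0.495%). The 4 with PDGFRα peaks (0.868%) included Rxra, Rxrb and Thra, against 0.224% of all coding genes. Forkhead genes had 0 CD137 and 3 PDGFRα members (0.651%), Foxc2 and Foxe3 among them, against 0.201% of all coding genes (difference -0.651 points, -1.90 to 0.111).

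**Figure D3:**
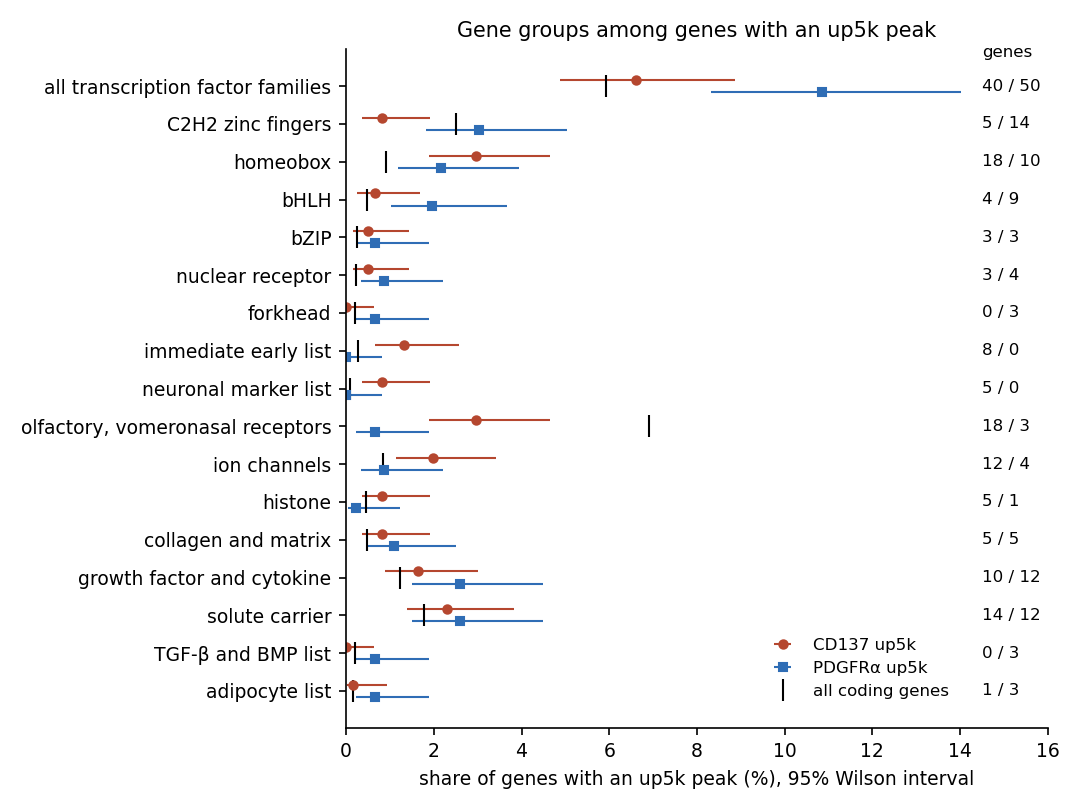
Share of the 606 CD137 genes (red circles) and of the 461 PDGFRα genes (blue squares) that belong to each group, with Wilson 95% intervals, and the share of all coding genes (black bar). The numbers on the right are genes with a CD137 up5k peak and genes with a PDGFRα up5k peak. Immediate early genes stand at 8 against 0, olfactory and vomeronasal receptors at 18 against 3, and C2H2 zinc fingers at 5 against 14. The C2H2 group leaves out the KLF, SP and EGR family.

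Genes that define fat cells carried CD137 up5k peaks at about the share of all coding genes, 2.77%. Of 34 adipocyte genes, 1 (2.94%) had a CD137 up5k peak (Rxra) and 3 (8.82%) had a PDGFRα one (Cebpb, Dgat2, Rxra), against 2.11% of all coding genes for PDGFRα. Of 32 thermogenic genes the CD137 list held 0 and the PDGFRα list 1, Zfp516, and counts this low are near those background shares. Stromal progenitor genes gave Thy1 in the CD137 list, and Dlk1 and Ly6a in the PDGFRα list. Glucocorticoid-response genes gave Bcl6 and Sgk1 in the CD137 list and Cebpb in the PDGFRα list. Sgk1, a kinase induced by glucocorticoids, had a CD137 peak of 1054 bp over its start at chr10:21881752-21882806.

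Signalling lists held few genes each, to be read against 2.77% of all coding genes with a CD137 up5k peak and 2.11% with a PDGFRα one. Of 36 Hippo and TEAD genes, 2 (5.56%) had CD137 peaks and 0 PDGFRα peaks, and the interval of the difference in list share included 0 (-0.530 to 1.20 points). They were Axl, a receptor tyrosine kinase and YAP target (2628 bp, over the start), and Vgll2, a TEAD co-factor (1288 bp, over the start). Of 43 TGF-β and BMP genes, 0 had CD137 peaks and 3 (6.98%) had PDGFRα peaks, namely Bmp6, Ltbp2 and Smad7, all wider than 2 kb, and this interval included 0 as well (-1.90 to 0.111 points). The list of 47 Wnt pathway genes, which leaves out some ligands and receptors, gave 2 in each list. They were the receptor Fzd6 and the ligase Znrf3 with CD137 peaks, and the agonist Rspo1 and the antagonist Sfrp4 with PDGFRα peaks. Fzd10, a receptor outside that list, had a 1333 bp CD137 peak over its start. Of the ligands outside that list, Wnt7a (1451 bp, over the start) and Wnt8a (1207 bp) had CD137 peaks, and Wnt9a (4572 bp, over the start) a PDGFRα peak. Pdgfa, a ligand of the receptor that marks the other population, had a 5663 bp CD137 peak over its start (chr5:138992526-138998189). Matrix genes numbered 5 in each list. The CD137 ones included Eln, Fbln1, Lama3 and Loxl1, and their median width was 1808 bp. The PDGFRα ones were Col14a1, Col1a1, Col3a1, Fbln2 and Lama4, with a median of 2722 bp and all at least 2174 bp wide.

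Most marker lists of other cell types are too short to read against the background of 2.77% for CD137 and 2.11% for PDGFRα. Endothelial and smooth muscle or pericyte genes had 0 up5k peaks in either list, out of 18 each. Immune genes gave 1 CD137 gene (Ly86) and 2 PDGFRα genes (Cd4, Lyz2), and mesothelial genes 0 CD137 and 2 PDGFRα genes (Cdh1, Wt1). Of 27 early embryo genes, 1 had a CD137 peak (Zp2, a zona pellucida protein) and 0 a PDGFRα peak, and Pou5f1, Nanog and Zscan4c had none. Of 22 neuronal genes, 5 (22.7%) had CD137 peaks (Dlg2, Gad2, Nefl, Slc17a6, Syn1) and 0 PDGFRα peaks, a difference of 0.825 points (-0.127 to 1.92). Their peaks were 860 to 1602 bp wide, and 4 of the 5 covered a known start, which at Dlg2 lies inside the gene. What part cells of other types had in these lists was not tested.

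Ion channel genes and chemosensory receptors were further groups of members. Ion channels numbered 12 in the CD137 list (1.98%) and 4 in the PDGFRα list (0.868%), against 0.836% of all coding genes, and the interval of the difference included 0 (-0.473 to 2.66 points). The median width of the 12 CD137 peaks, 1279 bp, was close to the 1285 bp of all CD137 up5k peaks. Kcna4 and Kcnh1, voltage-gated potassium channels, had peaks of 1430 bp and 1339 bp centred within 0.0410 kb of the start. Olfactory and vomeronasal receptor genes numbered 18 in the CD137 list (2.97%) and 3 in the PDGFRα list (0.651%), a difference of 2.32 points (0.669 to 4.05). Both shares were below the 6.91% that these receptors make up of all coding genes. The 18 CD137 peaks were 774 to 1591 bp wide, lay on 8 chromosomes, and 1 of them, at Olfr970, covered a known start. Receptor genes have near-identical copies, and nothing in the labels says how the authors treated reads with several matches.

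Both ferritin chains, which store iron, carried CD137 peaks. Ftl1, the light chain, had a 7144 bp peak over its start at chr7:45454876-45462020, the second widest of the list. Fth1, the heavy chain, had a 3117 bp CD137 peak over a start at chr19:9981511-9984628. A PDGFRα peak of 1960 bp lay 1.95 kb before another start of Fth1, at chr19:9977669-9979629. Slc40a1, the iron exporter ferroportin, had a CD137 peak of 1177 bp, centred 2.61 kb below its low end. These are the only members with an up5k peak among 30 genes of iron handling and oxidative stress. Of the 30, 3 (10%) had a CD137 peak and 1 (3.33%) a PDGFRα peak, against 2.77% and 2.11% of all coding genes. The interval of the difference in list share included 0 (-0.775 to 1.24 points). Histone genes numbered 5 in the CD137 list (H1f10, H2bc1, H2bu2, H4c17, H4c4) and 1 in the PDGFRα list (H4c8), against 0.462% of all coding genes, and the interval of the difference included 0 (-0.499 to 1.71 points). Ferritin and histone genes also have close copies elsewhere in the genome.

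Genes with peaks of both lists had them in different places. Rxra, the partner of PPARγ, had its CD137 peak 4.91 kb before the start (1766 bp) and its PDGFRα peak 0.583 kb before it (1008 bp). Tnfrsf1a, a TNF receptor, had a 1163 bp CD137 peak 5.51 kb before the start and a 4724 bp PDGFRα peak over it. Heyl, a Notch target, had a 2616 bp CD137 peak 4.98 kb below its low end and a 1182 bp PDGFRα peak at that end. Map3k20, a stress kinase, had the reverse order, with a 1962 bp CD137 peak over the start and a 1263 bp PDGFRα peak 4.79 kb before it. Of the 30 genes, 11 had the CD137 peak over the assigned end and 11 the PDGFRα peak. Overlap of the 2 lists at a site is not possible by construction.

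Across 59 families and lists, the interval of the difference left out 0 for 3, namely immediate early genes, olfactory and vomeronasal receptors, and C2H2 zinc fingers. The intervals are not adjusted for the number of groups.

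The widths of the up5k peaks were close in the middle of the lists. The median was 1285 bp in the CD137 list (interquartile range 1078 to 1567 bp) and 1330 bp in the PDGFRα list (1104 to 1607 bp). Peaks of 2 kb or more numbered 148 in the CD137 list (11.8%) and 103 in the PDGFRα list (11.6%), and peaks of 3 kb or more numbered 52 CD137 and 24 PDGFRα. Peaks over a known start were wider, with a median of 1454 bp in the CD137 list and 1469 bp in the PDGFRα list. After those already described, the widest CD137 peaks lay at Ubb (6121 bp), a ubiquitin gene, at Ndufa4l2 (6103 bp), a hypoxia-induced mitochondrial protein, at Cd248 (5943 bp), a surface protein of stromal cells, and at Ahnak (5914 bp). The known start of Ubb lay outside its peak. The strands of Ndufa4l2 and Cd248 were not in the table, and their peaks did not cover the low end. The high end of Ndufa4l2 lay under its peak, so whether that peak covered the start is unknown. Others over a start were at Flnc (4675 bp), an actin cross-linker, at Dot1l (4374 bp), a histone methyltransferase, and at S100a4 (4043 bp), a calcium-binding protein of fibroblasts. A 5371 bp peak at chr16:85790632-85796003 and a 5107 bp peak at chr8:126583101-126588208 lay nearest the 3′ ends of the minus-strand genes Adamts1 and Irf2bp2. The widest PDGFRα peaks were at Ang (7776 bp), Tns2 (7431 bp), Zfp503, Zfp516 and Hhipl1 (6099 bp), and the start of Rnase4 lay under the Ang peak as well.

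CpG-rich promoters took close shares of both lists. A promoter window was called CpG-rich when its 300 bases, 250 before the start and 50 after it, had at least 50% G and C and an observed over expected CpG ratio of at least 0.6. Of 432 CD137 genes with a window, 175 were CpG-rich (40.5%, 36.0 to 45.2%), and of 322 PDGFRα genes 130 were (40.4%, 35.2 to 45.8%), against 45.1% of all 21262 coding windows. The difference was 0.137 points (-6.94 to 7.15). Over starts under the peak, the shares were 45.6% of 239 in the CD137 list and 50% of 178 in the PDGFRα list. Within each list, peaks over CpG-rich starts had the larger median width, with a clearer gap in the CD137 list in the share of 2 kb or wider. In the CD137 list the median was 1606 bp over 109 CpG-rich starts and 1344 bp over the 130 others, and 36.7% of the CpG-rich ones (28.2 to 46.1%) and 10.8% of the others (6.52 to 17.3%) were 2 kb or wider. In the PDGFRα list the medians were 1623 bp over CpG-rich starts and 1404 bp over the others. Its shares of 2 kb or wider were 25.8% over CpG-rich starts (17.9 to 35.8%) and 18% over the others (11.4 to 27.2%), with overlapping intervals. Jun and Gadd45a, with ratios of 0.594 and 0.508, had wide peaks over starts below the CpG limit of 0.6.

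**Figure D4:**
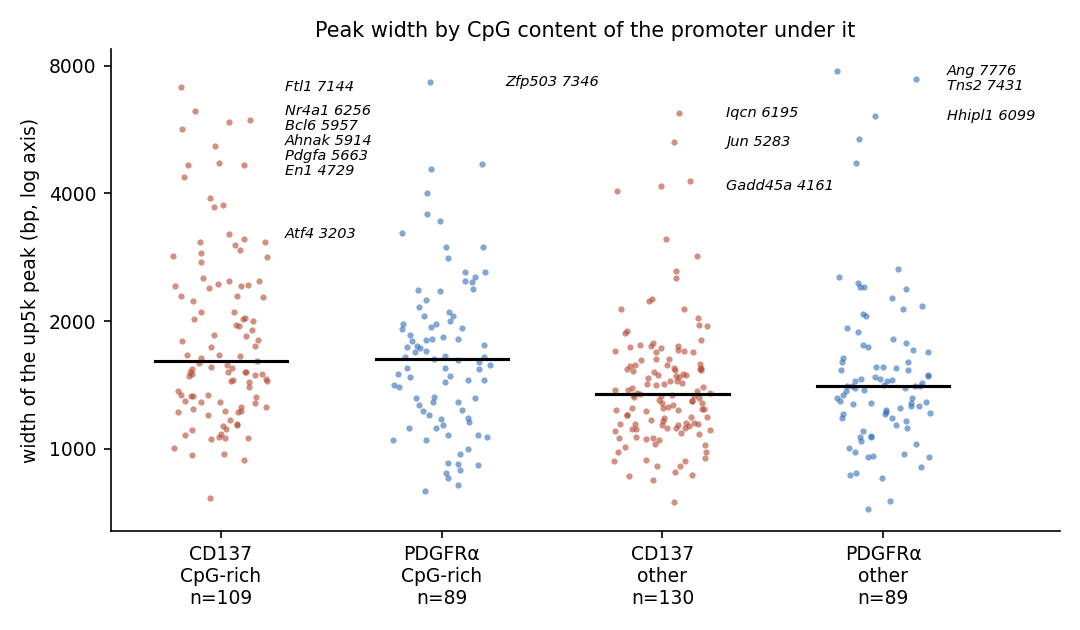
Width in bp (log axis) of up5k peaks that covered the known start of their gene, by CpG content of the promoter window, with CD137 left of PDGFRα in each pair. Points are peaks, black lines are medians, and the number beside a gene symbol is its width in bp. Of the CD137 peaks from Ftl1 at 7144 bp down to Jun at 5283 bp, all but those of Iqcn and Jun were at CpG-rich starts.

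Short motifs were counted in the same windows, on both strands, as exact letters. The GC box (GGGCGG, bound by SP and KLF factors) was in 55.6% of the 239 CD137 windows, 60.7% of the 178 PDGFRα windows and 46.2% of all coding windows. The CCAAT box was in 34.3% of CD137 windows (28.6 to 40.5%), 25.3% of PDGFRα windows (19.5 to 32.1%) and 38.2% of all windows. Its difference of 9.03 points (0.0912 to 17.5) was the only one of 21 motifs whose interval left out 0, with no adjustment for that number. The AP-1 motif (TGANTCA, bound by FOS and JUN) was in 9.62% of CD137 windows, 7.30% of PDGFRα windows and 6.99% of all windows. The TEAD motif (GGAATG) was in 13.4% of CD137 windows, 14.6% of PDGFRα windows and 13.6% of all windows. The glucocorticoid receptor half-site (AGAACA) was in 11.3% of CD137 windows, 13.5% of PDGFRα windows and 16.2% of all windows. Its full palindromic element was in 0 of 239 CD137 windows, 1.12% of PDGFRα windows and 0.442% of all windows. The C/EBP motif (TTGCNNAA) was in 7.53% of CD137 windows, 6.74% of PDGFRα windows and 10.2% of all windows. Sequence of the peaks away from gene starts was not used here.

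**Figure D5:**
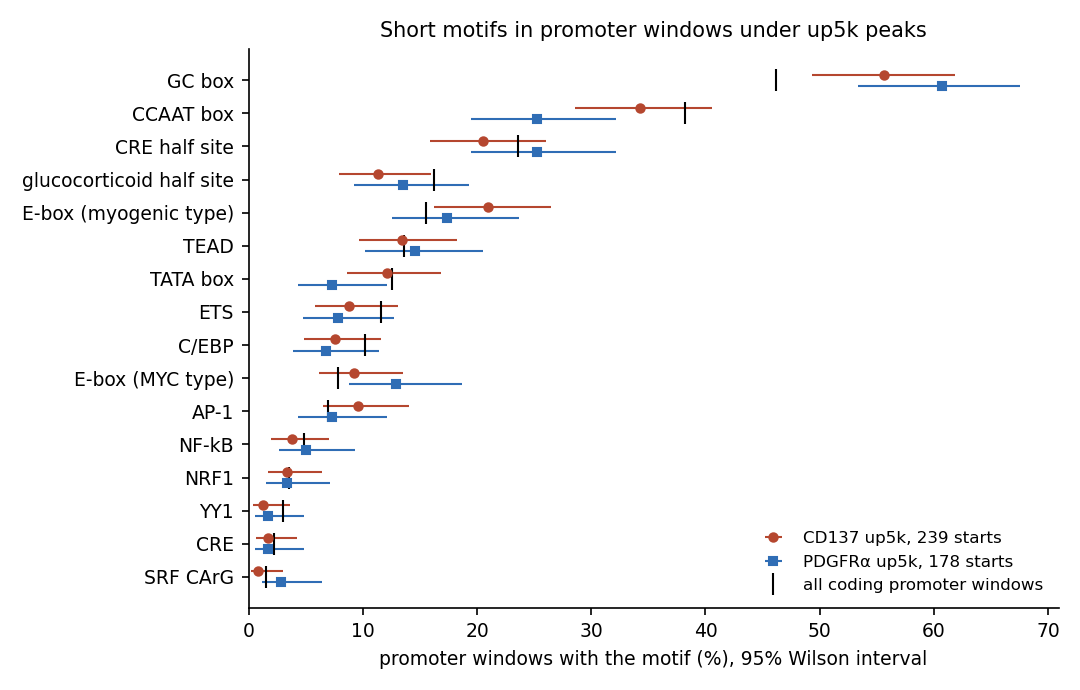
Share of promoter windows that hold each motif, for 239 starts under CD137 up5k peaks (red circles), 178 starts under PDGFRα up5k peaks (blue squares) and all coding windows (black bar), with Wilson 95% intervals. Motifs found in under 1% of all windows are left out. The CD137 and PDGFRα intervals overlap for every motif shown, and the CCAAT box has the widest gap, 34.3% against 25.3%.

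Some peaks lay near microRNA genes, short RNAs that silence messengers through a seed at their 5′ end. In RefSeq, 14 microRNA genes lay within 5 kb of 10 of the 1251 CD137 up5k peaks, and 17 within 5 kb of 16 of the 885 PDGFRα ones. The share of all RefSeq microRNA genes was not counted, so these numbers have no background and the genes below are examples. A 5380 bp CD137 peak at chr8:84199805-84205185, without a coding start within 5 kb, ended 3.33 kb before Mir23a, 3.49 kb before Mir27a and 3.63 kb before Mir24-2, which form 1 cluster on the plus strand. miR-27a is known to restrain adipocyte differentiation in mouse preadipocytes. A 2215 bp PDGFRα peak at chr11:75171802-75174017 covered Mir212 and Mir132, and other PDGFRα peaks covered Mirlet7i and Mir219a-1. Mature sequences of the main arms are given with the seed, bases 2 to 8, in capitals, the first 3 from the CD137 list and the last pair, which share a seed, from the PDGFRα list.
mmu-miR-23a-3p: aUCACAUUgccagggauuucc
mmu-miR-27a-3p: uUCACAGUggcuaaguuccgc
mmu-miR-24-3p: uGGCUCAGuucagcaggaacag
mmu-miR-132-3p: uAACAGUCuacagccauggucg
mmu-miR-212-3p: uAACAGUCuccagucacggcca

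Peaks of other classes were also counted at genes with a CD137 up5k peak. Of the 606 genes, 147 (24.3%, 21 to 27.8%) held another CD137 peak in the gene body or flanks and 96 (15.8%, 13.2 to 19.0%) a PDGFRα peak. Of the 461 genes with a PDGFRα up5k peak, 23.6% held a CD137 peak and 17.8% a PDGFRα peak of another class, so the lists were close. Over all coding genes, 17.3% held a CD137 peak of another class and 12.9% a PDGFRα one. Long genes led, with 12 other CD137 peaks and 4 PDGFRα peaks at Dlg2, a synaptic scaffold. Among genes under 20 kb the CD137 share was 4.73%, against 4.47% of all such genes. Tbx15 held 3 other CD137 peaks and 0 PDGFRα peaks. Of the 1251 CD137 up5k peaks, 94 (7.51%) had a PDGFRα peak of any class within 5 kb, and 56 (4.48%) another CD137 peak.

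The ratio of up5k peaks, 1251 CD137 to 885 PDGFRα, was 1.41 (exact interval 1.30 to 1.54). The other place classes held 13232 CD137 and 7117 PDGFRα peaks, a larger excess of CD137 peaks. Up5k peaks were therefore a smaller part of the CD137 list than of the PDGFRα list. By chromosome the up5k ratio was lowest on chromosome 12, at 0.871 (27 CD137 and 31 PDGFRα peaks). It was highest on chromosome 19, at 2.41 (41 CD137 and 17 PDGFRα peaks, 1.34 to 4.53). Both intervals hold the ratio of 1.41 over all up5k peaks. Chromosome Y, with 1 up5k peak in each list, was left out. For peaks of other classes the ratio was 1.98 on chromosome 12 and 1.69 on chromosome 19. These numbers also depend on the depth and the peak threshold of each library, neither of which is known.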

How the data were processed

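Open chromatin of 2 populations of mouse adipose progenitors, CD137+ and PDGFRα+, was measured by ATAC-seq with 1 library each. The authors deposited 1 list of unique peaks per library, and per the file headers each row gives a chromosome, start, end, Ensembl gene ID and place class. The deposited values are positions, with no score, signal or count. The submitters' processing notes name CASAVA 1.8 and mm10. The aligner, peak caller, threshold, any transposase shift of reads and the rule for a unique peak were not stated, and each could change which peaks are listed. Coordinates are printed as deposited, and whether they count from 0 or 1 is unknown.

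Peaks were assigned, with Python 3.11.15, numpy 2.4.6, pandas 2.3.3 and scipy 1.17.1, to the nearest coding gene start within 5 kb of the peak edge. Starts and strands came from RefSeq promoter windows of GRCm38.p6, where entries exist, and otherwise the low-coordinate gene end was used. Shares carry Wilson, differences Newcombe and ratios exact binomial 95% intervals. Assignment and CpG counting were tested on simulated peaks and sequences. Named genes are those used for sorting or in the study's title, the widest peaks, those with the most peaks, and the widest members of each of 41 families and 18 gene lists. Other genes were named after their values were seen. The members, families, lists and motifs were chosen with earlier results of these data known. Alternatives covered peak width, merging, CpG limits, gene assignment and family definition. Figures were drawn with matplotlib 3.10.9. Results of a few genes are not reported here.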

Additional observations from a re-analysis of the deposited data

Results flagged for a closer look

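A signal stood outside the up5k class. In the deposited class down5k, 159 CD137 peaks and 84 PDGFRα peaks lay over a known coding gene start. Of the 159 CD137 genes reached in this way, 153 were on the minus strand, and of the 84 PDGFRα genes 81 were. Of the 247 genes with a known start under a CD137 up5k peak, 49 were on that strand. Both counts are descriptions of 1 library each, and no control library was analysed here.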

How the results depend on the processing

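No paired analysis was possible because each population has 1 library and the labels give no shared replicate numbers. Of 23 alternatives, 18 kept the value within the 95% interval of the value as reported, all 4 for CpG-rich promoters among them. Counting only peaks of at least 1500 bp lowered the CD137 to PDGFRα ratio of up5k peaks to 1.24 (main value 1.41). With the CD137 list reduced to its widest 885 peaks, the share over a known start was 2.49 points higher in the CD137 list (main difference -0.928). The lower transcription factor share of CD137 genes (main difference -4.25 points) was -2.03 points without C2H2 zinc fingers and -4.99 among peaks at least as wide as the median of their list, both with 0 inside the interval. It shrank to -0.338 points among known starts under an up5k peak. It turned to 0.142 points among known starts under peaks of any class, an alternative chosen after seeing the data, with 46 of 503 CD137 genes and 28 of 311 PDGFRα genes. The causes were not tested. The alternatives on genes of unknown strand, chromosome 18, the 250 bases before the start and low-coordinate gene ends were also chosen after seeing the data. Genes in both lists made up 4.95% of CD137 genes, and 14.6% of CD137 Ensembl IDs had a PDGFRα peak of any class. Immediate early genes numbered between 5 and 9 in the CD137 list and 0 in the PDGFRα list under 6 ways of assignment, and the interval of the difference included 0 for starts under an up5k peak (-0.354 to 4.65 points). Olfactory and vomeronasal receptors fell to 1 CD137 and 0 PDGFRα genes when the start had to lie under an up5k peak. C2H2 genes outside the KLF, SP and EGR family then numbered 5 CD137 and 4 PDGFRα genes. Depth is unknown, so no limit of detection can be given.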

Other observations

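CD137 down5k peaks covered the starts of 159 genes, 153 of them on the minus strand, and the genes named here were chosen after their widths were seen. Cry2, a clock repressor, had the widest at 5862 bp (chr2:92430042-92435904), over its start. Igf2bp2, an RNA-binding protein, followed with 4775 bp, and Fosb, an AP-1 subunit, with 4456 bp at chr7:19306729-19311185. Btg2, an antiproliferative early gene, had 4135 bp, and Gfi1, a zinc finger repressor, 3829 bp. Socs3, whose up5k peak lay on its 3′ side, had a further CD137 peak of 2846 bp over its start, in this class. Pdpn, a surface glycoprotein of stromal cells, had 4064 bp, and Hoxa11 and Hoxa10 had 2428 bp and 2162 bp.

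Over peaks of any class, the known starts of 503 coding genes lay under a CD137 peak and those of 311 under a PDGFRα peak. Of the immediate early genes, 8 were among the CD137 starts (Btg2, Fosb, Gadd45a, Gadd45b, Jun, Jund, Nr4a1, Socs3) and 0 among the PDGFRα starts, a difference of 1.59 points (0.141 to 3.11). In the exon class, 12 of 93 CD137 genes with a covered start (12.9%) and 4 of 41 PDGFRα genes (9.76%) were in transcription factor families. In the down5k class they were 15 of 159 CD137 genes (9.43%) and 7 of 84 PDGFRα genes (8.33%), against 5.93% of all coding genes. The CD137 exon genes included Pparg, the master regulator of adipogenesis, and Esr1. The PDGFRα down5k genes included Tcf21, a factor of white preadipocytes, and Stat5b. These examples come from different classes and do not compare the lists.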
